A study of Mus musculus with 17 samples.

Results

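The genes described here are 35 genes of glucose breakdown and of the response to low oxygen, taken by symbol from a written list out of 56305 gene rows in the deposited count tables. They comprise 25 glycolytic genes (2 glucose transporters, 16 enzymes of the pathway, 2 regulators of phosphofructokinase and 5 genes of lactate and pyruvate handling) and 10 genes of the hypoxia-inducible factor (HIF) pathway and its targets. All 35 symbols were found, and the rule for choosing them uses no measured value. The RNA came from the marrow of leukaemic C57BL/6 mice, a model of acute myeloid leukaemia (AML), and both groups carried the same heterozygous alleles, Dnmt3aR878H/+ and Npm1cA/+. The Mt1ko group also had a CRISPR-Cas9 knock-down of Mt1, a metal-binding metallothionein, and the control group did not carry that label. The 9 Mt1ko libraries were summed by the authors into samples 4-6, 10-12 and 16-18, and the 8 control libraries into samples 1-3, 7-9 and 14-15, each named by its library numbers. Each library is titled a technical replicate, and nothing says that the 6 samples came from separate animals or cultures, so the p-values reflect only how far these samples spread, and that spread may be technical. The labels give neither a sort nor the share of leukaemic cells. In bulk RNA such as this, fewer cells of a type and less RNA per cell cannot be told apart.

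Glycolysis takes up glucose, splits it into pyruvate in the cytosol and, where pyruvate is reduced to lactate and exported, yields ATP without oxygen. Cells sense oxygen through prolyl hydroxylases of the Egln family, which mark HIF alpha subunits for destruction when oxygen is present. When oxygen is low, HIF binds DNA at a short core sequence, ACGTG, and raises transcription of many glycolytic genes, of Bnip3, of Vegfa and of the hydroxylases themselves. Bone marrow is a tissue of low oxygen tension, and leukaemic cells are known for a high use of glucose.

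The promoters of 4 members are shown because these genes differed most between samples (Bnip3 and Ankrd37 among the HIF genes other than the scarce Adm, and Pgk1 among the abundant glycolytic enzymes) or the most matches to the HIF core sequence (Ldha). Each is the 250 bases before a RefSeq start in build GRCm38.p6, written 5′ to 3′ on the strand of the gene, and capitals mark ACGTG or its reverse complement CACGT.
Bnip3 (chr7:138909507-138909756, minus strand): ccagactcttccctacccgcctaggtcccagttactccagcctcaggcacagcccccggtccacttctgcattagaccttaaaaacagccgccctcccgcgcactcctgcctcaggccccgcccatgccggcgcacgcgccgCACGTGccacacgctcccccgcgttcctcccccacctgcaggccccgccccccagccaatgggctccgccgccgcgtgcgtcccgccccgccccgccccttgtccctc
Ankrd37 (chr8:45999851-46000100, minus strand): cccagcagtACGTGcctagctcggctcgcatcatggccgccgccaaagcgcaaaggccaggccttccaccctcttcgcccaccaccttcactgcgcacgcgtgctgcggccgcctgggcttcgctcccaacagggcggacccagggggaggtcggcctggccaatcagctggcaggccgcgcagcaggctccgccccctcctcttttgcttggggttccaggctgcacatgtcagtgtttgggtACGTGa
Pgk1 (chrX:106186850-106187099, plus strand): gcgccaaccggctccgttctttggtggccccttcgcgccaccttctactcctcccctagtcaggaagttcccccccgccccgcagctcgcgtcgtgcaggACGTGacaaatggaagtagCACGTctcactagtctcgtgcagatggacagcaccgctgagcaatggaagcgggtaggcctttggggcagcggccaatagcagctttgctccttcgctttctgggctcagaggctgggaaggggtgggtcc
Ldha (chr7:46845554-46845803, plus strand): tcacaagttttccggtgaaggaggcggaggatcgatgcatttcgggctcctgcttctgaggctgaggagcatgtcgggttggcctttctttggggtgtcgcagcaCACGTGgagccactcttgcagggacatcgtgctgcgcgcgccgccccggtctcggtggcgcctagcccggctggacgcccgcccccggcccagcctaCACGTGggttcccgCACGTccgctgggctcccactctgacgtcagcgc

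Where both strands match over the same letters, the sequence reads CACGTG, which is also the core of the E-box bound by MYC and related factors, and it counts as 2 matches. The Ldha window shown held 5 matches, 2 pairs of which lay within a CACGTG, and the Bnip3 window held 2, both within CACGTG. The window of another Ldha start (chr7:46846832-46847081), not shown, held 0 matches. The windows of Ankrd37 and Pgk1 held 2 separate matches each, and the match nearest to a start among these 4 genes lay 6 bases before that of Ankrd37. A promoter entry was found for 32 of the 35 members, not for Slc2a3, Bnip3l and Ndrg1. At least 1 match was present for 19 of the 32 (59.4%), for 12 of 24 glycolytic genes and for 7 of 8 HIF genes (87.5%), against 4998 of all 27025 genes with an entry (18.5%). At least 2 matches were present for 10 of the 32 members (31.2%), against 7.76% of all genes. Many of these genes are listed because HIF is known to act on them, so the shares are a description of the list, and a match is not a shown binding site.

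Single libraries totalled 27124722 to 38645072 counts, and sums of libraries 64247249 to 106407001. Mt1 itself had a log2 fold change of -1.85 (SE 0.34) in Mt1ko against control. Library 6, labelled Mt1ko, held control-level Mt1 at 326.2 CPM (counts scaled to a common library total), so sample 4-6 contains a library that goes against its label. Sample 10-12 stood apart in another way: mitochondrial ribosomal RNA took 21.9% to 30.2% of the counts in its 3 libraries, against 4.58% to 11.2% in the other 14, and 11548 to 13174 genes had a count, against 14823 to 17739. Its markers differed too, for the 12 mast cell and basophil markers summed to 5304 CPM in Mt1ko sample 10-12, to 413.0 and 166.7 CPM in the other Mt1ko samples, and to 239.4 to 831.5 CPM in control. The 12 monocyte and macrophage markers, all above 10 CPM in control, summed to 10693 CPM in Mt1ko sample 10-12, to 16142 and 15807 CPM in the other Mt1ko samples, and to 13793 to 14946 CPM in control. Of the 6 stroma and endothelium markers only 1 averaged at least 10 CPM in control, and Cdh5 was at 0 in all samples. The 6 markers summed to 90.8 CPM in Mt1ko sample 10-12. They summed to 18.4 and 14.9 CPM in the other Mt1ko samples, and to 17.7 to 23.7 CPM in control. The 8 megakaryocyte and platelet markers summed to 201 to 319.5 CPM in Mt1ko and to 106 to 185 CPM in control, with Gp9 and Gp1bb at 0 in all 6 samples, and the 13 neutrophil markers to 194 to 365 CPM in Mt1ko and 226 to 396 CPM in control. The B cell markers summed to at most 3.97 CPM in any sample, with Ms4a1 and Pax5 at 0 in all 6, and the T and NK cell markers to at most 0.464 CPM, with Cd4, Nkg7 and Klrb1c at 0.

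No difference between Mt1ko and control was called for any of the 35 genes. All 35 passed the filter on low counts, and 0 of them passed an adjusted p of 0.05 in the edgeR quasi-likelihood test over 16666 genes. The share of all genes called was 0.0%. The targeted gene Mt1, with a log2 fold change of -1.85 (SE 0.34), was thus not called either, so this test can miss a change of that size. At an unadjusted p under 0.05 edgeR gave 0 members and 171 of all genes (1.03%). DESeq2 called 1 gene, Mt1, and limma-voom called none, and neither called a member. The direction was mostly downward without reaching the threshold: 26 of 35 members had a log2 fold change below 0, against 51.7% of all genes tested. That majority shrank to 21 of 35 when library 6 alone was left out. It was lost without sample 10-12, where 17 of 35 were below 0, and 16 of 35 were when library 6 was left out as well. The glycolytic genes had a median log2 fold change of -0.03 (17 of 25 below 0) and the HIF genes of -0.10 (9 of 10 below 0), beside -0.01 over all genes tested. Without sample 10-12 the counts were 10 of 25 and 7 of 10, and without library 6 alone they were 12 of 25 and 9 of 10. The HIF count also rested on other samples, for it was 5 of 10 without Mt1ko sample 4-6 and likewise 5 of 10 without control sample 7-9. Upper quartile scaling put all 10 HIF genes and 19 of 25 glycolytic genes below 0, and RLE scaling put 9 and 16 there.

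**Figure D1:**
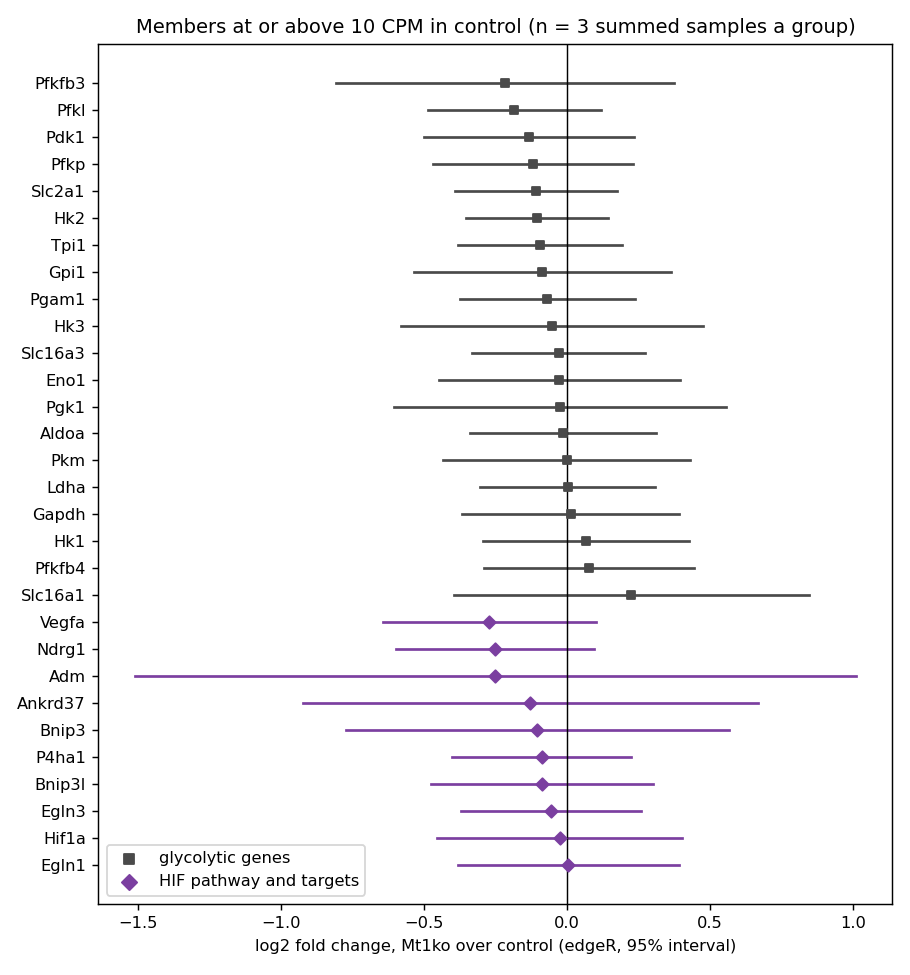
Log2 fold change, Mt1ko over control, of the 30 members with at least 10 CPM in control, from edgeR on 3 summed samples a group; squares are glycolytic genes, diamonds are HIF genes, and bars are 95% intervals. Every interval crosses 0, and the farthest point below 0 is Vegfa at -0.27.

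The 95% intervals bound the size of the group differences. For 29 of the 35 members the interval lay within 1 log2 unit of 0 on either side, and for 20 it lay within 0.5. Among the 25 members with at least 100 CPM in control, these numbers were 25 and 18, and among all 1847 such genes they were 1768 and 1193. Of the 10 less abundant members, 5 were below 10 CPM in control (Slc2a3, Pfkm, Aldoc, Eno2 and Ldhb), and their intervals were the widest of the glycolytic genes.

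The level of each gene was compared per length, as TMM-scaled CPM per kilobase of union exon. Pkm, the pyruvate kinase of most tissues, led with 1093 ± 206 CPM per kilobase in Mt1ko and 1093 ± 57.9 in control (SD, n = 3 each, here and for the next 4 genes). Gapdh followed with 698 ± 105 in Mt1ko and 692 ± 38.5 in control, and Eno1 with 627 ± 116 in Mt1ko and 639 ± 44.6 in control. Aldoa had 565 ± 28.3 CPM per kilobase in Mt1ko and 570.3 ± 57.5 in control, and Pgk1 had 391 ± 111 in Mt1ko and 397 ± 77.2 in control. The order given is that of the control means. Gapdh, Eno1 and Aldoa followed each other with overlapping control values, while Pkm lay above Gapdh in every control sample. Of the 34 neighbouring pairs in the whole order, 23 overlapped in control and 11 did not. The most abundant HIF gene per length was P4ha1, at 114 ± 14.2 CPM per kilobase in Mt1ko and 121 ± 1.78 in control. The order ended with Ldhb, at 0.838 ± 1.45 in Mt1ko and 0.143 ± 0.132 in control, and Eno2, at 0.0243 ± 0.0245 in Mt1ko and 0.0571 ± 0.0771 in control. The 25 glycolytic genes together took 2.14%, 1.39% and 2.20% of all counts in Mt1ko samples 4-6, 10-12 and 16-18, against 2.17%, 2.02% and 2.07% in control samples 1-3, 7-9 and 14-15. The 10 HIF genes took 0.218% to 0.289% of counts in Mt1ko and 0.285% to 0.331% in control. These shares are of all counts, including the mitochondrial ribosomal RNA that was highest in sample 10-12. On the TMM scale the glycolytic genes summed to 16335 CPM in sample 10-12 and to 19238 to 21391 CPM in the other samples. The HIF genes summed to 2565 CPM in sample 10-12 and to 2615 to 3146 CPM in the other samples.

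**Figure D2:**
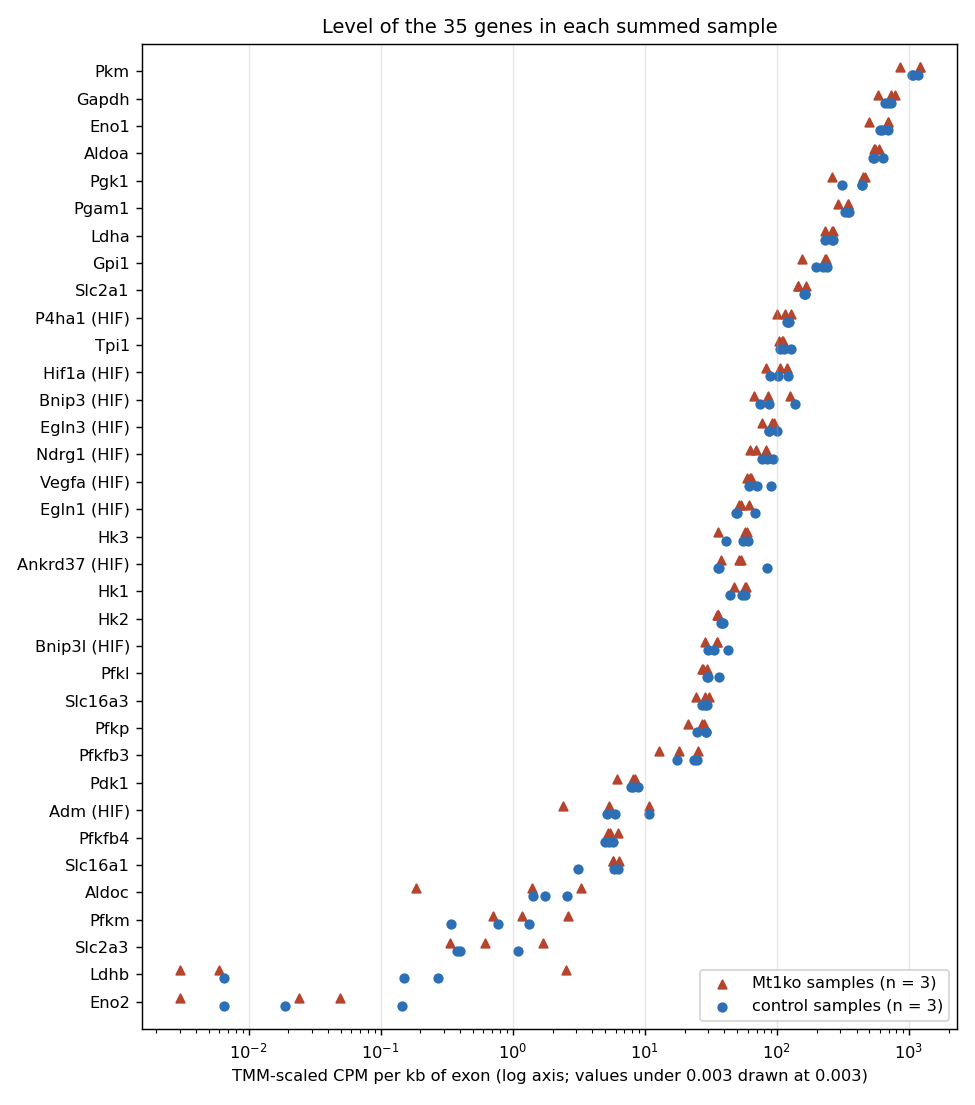
TMM-scaled CPM per kilobase of union exon (log axis) of the 35 genes in each of the 6 summed samples, triangles for Mt1ko and circles for control, ordered by the control mean. Values spread over more than 4 orders of magnitude between genes, and Mt1ko and control points overlap in every row except Hk2.

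Of the glucose transporter genes, nearly all transcripts were of Slc2a1, the basal transporter of most cells. Slc2a1 (chromosome 4, 119108711 to 119137983, plus strand, build GRCm38 for all gene positions) had 509, 502 and 579 CPM in Mt1ko samples 4-6, 10-12 and 16-18, against 576, 573 and 565 CPM in control samples 1-3, 7-9 and 14-15. A pair of Mt1ko samples was below all controls and the other was above them, with a log2 fold change of -0.11 (SE 0.12, adjusted p = 1.00 by edgeR). Slc2a3, the high-affinity transporter of neurons and some leukocytes, had 2.41 to 12.2 CPM in Mt1ko and 2.73 to 7.93 CPM in control. Per length, Slc2a1 made up at least 98.8% of the pair in every sample.

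Hexokinases commit glucose to the cell by phosphorylation, and transcripts of all 3 listed forms were present at similar levels per length. Hk2, the form induced by growth signals and HIF, had 211, 213 and 212 CPM in Mt1ko and 232, 227 and 225 CPM in control samples 1-3, 7-9 and 14-15. It was the only member whose groups did not overlap on the TMM scale, with every Mt1ko value lower, which is 1 of 35 members beside 4.36% of all genes separated in that direction and 2.74% in the other. The log2 fold change was -0.10 (SE 0.11, unadjusted p = 0.36 and adjusted p = 1.00 by edgeR). Its libraries overlapped, from 190.0 to 252 CPM in Mt1ko and from 188 to 244 CPM in control. On CPM without TMM scaling, Pfkl and Vegfa were also lower without overlap, beside 6.49% of all genes, and no member was higher without overlap, beside 1.32% of all genes. Hk1, the housekeeping form, had 492, 400.5 and 502 CPM in Mt1ko and 485, 378 and 467 CPM in control. Hk3, a form of myeloid cells, had 217, 132 and 209.6 CPM in Mt1ko and 204, 152 and 223 CPM in control. For both, Mt1ko sample 10-12 and control sample 7-9 were the lowest of their groups. Per length, Hk1 made up 38.8 ± 0.85% of the 3 hexokinases in Mt1ko and 36.4 ± 1.08% in control (SD, n = 3 each), and its share was higher in every Mt1ko sample, by a margin of 37.9% over 37.7% at the nearest pair. In all the paralog families examined no other share separated the groups. The shares were not tested, since with 3 samples against 3 no exact two-sided p can fall below 0.1. Many shares were examined, so the separation of 1 of them may be chance. Hk3 made up 35.5 ± 4.63% in Mt1ko and 36.5 ± 3.12% in control, and Hk2 made up 25.6 ± 3.89% in Mt1ko and 27.1 ± 3.28% in control.

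Phosphofructokinase, the main control point of the pathway, had its transcripts mainly from the liver-type Pfkl and the platelet-type Pfkp. Pfkl had 184, 182 and 197.5 CPM in Mt1ko samples 4-6, 10-12 and 16-18, against 199.7, 243 and 197 CPM in control samples 1-3, 7-9 and 14-15. In sample 4-6, library 6, which held control-level Mt1, had 159 CPM of Pfkl, beside 187 and 201 CPM in libraries 4 and 5. Only Mt1ko sample 16-18 reached the control range, and the log2 fold change of -0.18 (SE 0.13, 95% interval -0.49 to 0.12) had the smallest p of the glycolytic genes (unadjusted p = 0.20 and adjusted p = 1.00 by edgeR). Without control sample 7-9 the fold change of Pfkl was -0.075. Pfkp had 283 to 375 CPM in Mt1ko and 333 to 387 CPM in control. The muscle-type Pfkm stayed under 10 CPM in all samples and took 1.29% to 5.11% of the family per length in Mt1ko and 0.583% to 2.13% in control. In Mt1ko library 12 it reached 23.3 CPM, against at most 5.42 CPM in the other Mt1ko libraries. Of the enzymes that make and remove the activator fructose 2,6-bisphosphate, Pfkfb3 had 138, 96.6 and 191 CPM in Mt1ko and 177, 132 and 186 CPM in control, the widest range of the abundant glycolytic genes at 1.98-fold over the 6 samples. Pfkfb4 had 25.5 to 30.7 CPM in Mt1ko and 24.4 to 27.7 CPM in control.

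**Figure D3:**
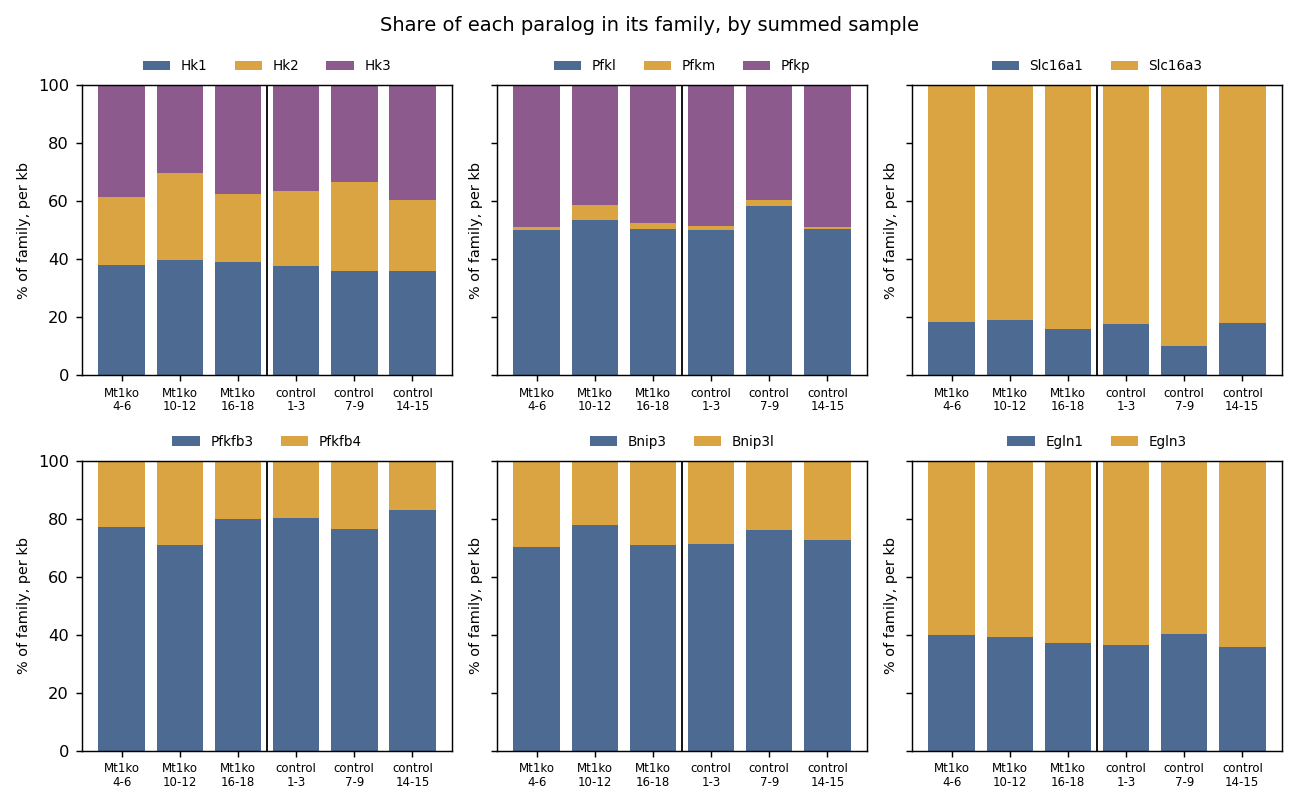
Share of each paralog in its family (percent, from CPM per kilobase) in the 6 summed samples for hexokinases, phosphofructokinases, lactate transporters, Pfkfb enzymes, the Bnip3 pair and the Egln pair, with Mt1ko samples left of the line and control samples right of it. Each family kept the same leading gene in all 6 samples except the hexokinases, where Hk1 led in Mt1ko samples 10-12 and 16-18 and in control samples 1-3 and 7-9, and Hk3 in Mt1ko sample 4-6 and control sample 14-15.

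The enzymes below phosphofructokinase were abundant, and most were lowest in Mt1ko sample 10-12. Pgk1 (chromosome X, 106187100 to 106203699, plus strand), phosphoglycerate kinase, makes the first ATP of the pathway. It had 1037, 589 and 1004 CPM in Mt1ko samples 4-6, 10-12 and 16-18, against 992, 691 and 991 CPM in control samples 1-3, 7-9 and 14-15. Its low values were thus a sample of each group, and the log2 fold change was -0.02 (SE 0.25, adjusted p = 1.00 by edgeR). Pkm had 6027, 4277 and 6093 CPM in Mt1ko and 5797, 5254 and 5351 CPM in control. Gapdh, the dehydrogenase often used to normalise expression, had 3247, 2404 and 3003 CPM in Mt1ko and 3012, 2694 and 2868 CPM in control. Eno1, the general enolase, had 3715, 2653 and 3754 CPM in Mt1ko and 3709, 3260 and 3338 CPM in control. In each of these 3 genes sample 10-12 was the lowest of all 6, and the other Mt1ko samples were above the 3 control samples, except Gapdh in sample 16-18, which was just below control sample 1-3. Gpi1, the isomerase after hexokinase, followed with 1519, 994 and 1479.7 CPM in Mt1ko and 1537, 1265 and 1436 CPM in control. Aldoa, the main aldolase, did not share the low value, with 1587, 1738 and 1607 CPM in Mt1ko and 1574, 1853 and 1554 CPM in control. Tpi1, triosephosphate isomerase, had 286 to 304 CPM in Mt1ko and 290.2 to 349.9 CPM in control. Pgam1, phosphoglycerate mutase, had 569.6 to 685 CPM in Mt1ko and 648 to 701 CPM in control. All 9 log2 fold changes of Gpi1, Aldoa, Tpi1, Gapdh, Pgk1, Pgam1, Eno1, Pkm and Pfkp lay between -0.12 and 0.01. Aldoc and Eno2, isoforms best known from brain, were near the floor at under 11 CPM and under 1 CPM in all samples.

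Some counts are shared with neighbours or copies. The pseudogene Pgam1-ps2 was assigned 50560 counts over the 17 libraries, or 13.8% of those of Pgam1, and Gm49759, which overlaps 15.3% of the Pkm exons on the same strand, was assigned 147903 beside 3031605 of Pkm. Ankrd37 overlaps Lrp2bp over 22.7% of its exons and Bnip3 overlaps the antisense Gm45507 over 22.3%, on opposite strands, with 204 and 65 counts in those neighbours. The sources used here do not say how the counting divided such reads.

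Of the lactate genes, Ldha and Slc16a3 were the abundant ones. Ldha, the lactate dehydrogenase subunit that favours lactate formation, had 879, 763 and 859.5 CPM in Mt1ko samples 4-6, 10-12 and 16-18, against 874, 859 and 764 CPM in control samples 1-3, 7-9 and 14-15. The groups covered the same range, with a log2 fold change of 0.0034 whose 95% interval ran from -0.30 to 0.31. Ldhb was all but absent, at 0 to 0.00938 CPM in Mt1ko samples 4-6 and 16-18 and at 0.0103 to 0.425 CPM in control, while Mt1ko sample 10-12 had 3.94 CPM from 313 counts, all of them in library 10. Its fitted log2 fold change of 2.54 (SE 2.36) therefore rested on a single library. The lactate exporter Slc16a3 had 152, 129 and 162 CPM in Mt1ko and 158, 151 and 143 CPM in control, and made up 80.9% to 84.1% of the transporter pair per length in Mt1ko and 82.1% to 90.1% in control. The transporter Slc16a1 had 25.4 to 28.2 CPM in Mt1ko and 27.7, 13.9 and 26.0 CPM in control, where sample 7-9 alone was low. Pdk1, which holds pyruvate back from the mitochondria by inhibiting pyruvate dehydrogenase, had 65.5, 47.9 and 63.2 CPM in Mt1ko and 69.5, 63.2 and 60.8 CPM in control.

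Among the HIF genes, neither the factor itself nor its oxygen sensors gave a call. Hif1a (chromosome 12, 73901375 to 73947530, plus strand) encodes the regulated alpha subunit, which is controlled mainly at the protein level. It had 699.8, 485 and 625.1 CPM in Mt1ko samples 4-6, 10-12 and 16-18, against 718, 527 and 596 CPM in control samples 1-3, 7-9 and 14-15, with a log2 fold change of -0.02 (SE 0.18, adjusted p = 1.00 by edgeR). Mt1ko sample 10-12 and control sample 7-9 had the lowest Hif1a of their groups. The prolyl hydroxylases were highest of their groups in those samples. Egln1 had 184, 222 and 193 CPM in Mt1ko and 178, 244 and 175 CPM in control, while Egln3 had 207, 255 and 244 CPM in Mt1ko and 231, 269 and 233 CPM in control. The Egln1 value of Mt1ko sample 10-12 rested on library 10, which had 339 CPM beside 146 and 194 CPM in libraries 11 and 12.

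Apart from the scarce Adm, the targets with the largest differences between samples were Bnip3 and Ankrd37, whose promoters are printed above. Bnip3 (chromosome 7, 138890836 to 138909519, minus strand) encodes a mitochondrial outer membrane protein that promotes mitophagy. It had 153, 283 and 193 CPM in Mt1ko samples 4-6, 10-12 and 16-18, against 168, 308 and 199 CPM in control samples 1-3, 7-9 and 14-15. The high values were again Mt1ko sample 10-12, at 1.64 times the mean of the other Mt1ko samples, and control sample 7-9, at 1.68 times the mean of the other control samples. The group difference was -0.10 on the log2 scale (SE 0.29, adjusted p = 1.00 by edgeR). Bnip3 was not even within samples, for library 11 of sample 10-12 had 207 CPM beside 329 and 332 CPM in libraries 10 and 12, and control library 15 had 261 CPM beside 141 CPM in library 14. Its relative Bnip3l, a mitophagy receptor of maturing red cells, had 111, 136 and 135 CPM in Mt1ko and 115, 163 and 128 CPM in control. In Mt1ko sample 10-12 library 12 had 200.3 CPM of Bnip3l, beside 99.9 and 118 CPM in libraries 10 and 11. Ankrd37 (chromosome 8, 45996902 to 46005707, minus strand), an ankyrin repeat gene known as a HIF target, had 57.7, 82.9 and 80.0 CPM in Mt1ko and 55.0, 129.6 and 56.5 CPM in control. Control sample 7-9 was 2.33 times the mean of the other control samples, and its 3 libraries at 107 to 162 CPM were above all 14 others, whose highest was 104 CPM in Mt1ko library 12. The group difference of Ankrd37 was -0.13 (SE 0.34).

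**Figure D4:**
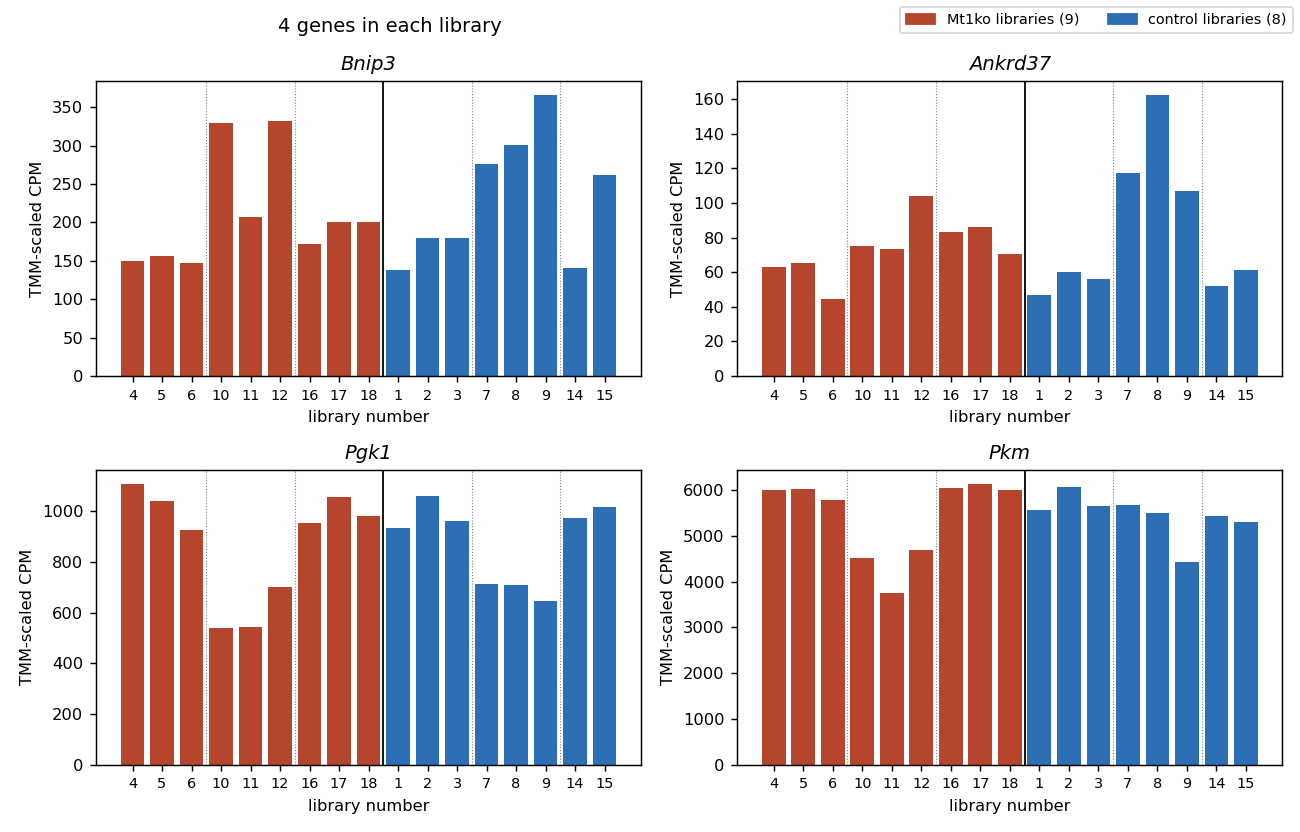
TMM-scaled CPM of Bnip3, Ankrd37, Pgk1 and Pkm in each of the 17 libraries, Mt1ko libraries left of the solid line and control libraries right of it, with dotted lines between summed samples. Pgk1 is lowest and Bnip3 mostly highest in libraries 10 to 12 and 7 to 9, and Ankrd37 is highest in control libraries 7 to 9.

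Vegfa and Ndrg1 had the smallest p-values of the 35. Vegfa (chromosome 17, 46016993 to 46032369, minus strand), the main growth factor of blood vessels, had 267, 273 and 253 CPM in Mt1ko samples 4-6, 10-12 and 16-18, against 304, 388 and 265 CPM in control samples 1-3, 7-9 and 14-15. Only control sample 14-15 fell within the Mt1ko range. Within Mt1ko sample 10-12, library 10 had 403 CPM of Vegfa, beside 217 and 205 CPM in libraries 11 and 12. Within Mt1ko sample 4-6, library 6 had 237 CPM of Vegfa, beside 272 and 282 CPM in libraries 4 and 5. Its log2 fold change of -0.27 had an SE of 0.16 and a 95% interval from -0.64 to 0.10 (unadjusted p = 0.13 and adjusted p = 1.00 by edgeR), and without control sample 7-9 the fold change was -0.10. Ndrg1 (chromosome 15, 66929318 to 66969640, minus strand), a stress-responsive gene induced by hypoxia, had 455.9, 414 and 542 CPM in Mt1ko and 509, 613 and 559 CPM in control. Mt1ko sample 16-18 lay within the control range and the other Mt1ko samples below it, with a log2 fold change of -0.25 (SE 0.15, 95% interval -0.60 to 0.10, unadjusted p = 0.13 and adjusted p = 1.00 by edgeR). In sample 4-6, library 6, which held control-level Mt1, had 401 CPM of Ndrg1, beside 473 and 480 CPM in libraries 4 and 5. When all 17 libraries entered edgeR singly, 3 of the 33 members tested (Ndrg1, Pfkl and Vegfa) had an unadjusted p under 0.05, beside 300 of all 14135 genes tested (2.12%), and their adjusted p was again 1. Libraries of a sample are not independent, so this p is too small. With the second index as a covariate Ndrg1 and Pfkl had such a p, beside 2.24% of all genes, and with the sample as a random effect Ndrg1 did, beside 2.02%. P4ha1, a collagen prolyl hydroxylase subunit, had 472, 410 and 527 CPM in Mt1ko and 508, 497 and 494 CPM in control. Adm, which encodes the vasodilator adrenomedullin, had 8.62, 3.90 and 17.4 CPM in Mt1ko and 9.62, 8.43 and 17.5 CPM in control, and the interval of its log2 fold change ran from -1.51 to 1.01.

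The libraries carried 3 second index sequences, and the groups were also compared within each. With the first (3 Mt1ko libraries, all of sample 4-6, and 5 control libraries), Ndrg1 averaged 451 ± 44.0 CPM in Mt1ko and 558 ± 75.9 CPM in control (SD over libraries), and with the second (4 Mt1ko libraries, 3 of them of sample 10-12, and 3 control libraries) 429.9 ± 44.0 CPM in Mt1ko and 565 ± 20.5 CPM in control. Vegfa averaged 264 ± 23.6 CPM in Mt1ko and 348 ± 68.9 CPM in control with the first, and 267 ± 91.97 CPM in Mt1ko and 286 ± 38.5 CPM in control with the second. The median log2 difference of the 10 HIF genes was -0.27 with the first index (9 of 10 lower) and -0.09 with the second (6 of 10 lower), and that of the 25 glycolytic genes was -0.05 and -0.09 (16 of 25 lower in each), beside -0.02 and -0.07 over all genes tested. The third index was carried by 2 Mt1ko libraries and no control library.

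A sample of each group stood apart for many of these genes. Mt1ko sample 10-12 was the lowest of the 6 samples for 17 of 25 glycolytic genes (68%), against 38.6% of all genes tested. Among genes with at least 100 CPM in control the counts were 14 of 17 (82.4%), against 45.4% of all such genes. Control sample 7-9 was the highest for 7 of 10 HIF genes (70%), against 20.1% of all genes, and for 6 of 8 with at least 100 CPM (75%), against 15.8%. In Mt1ko sample 10-12 the 17 abundant glycolytic genes lay a median of -0.25 log2 units from the control mean, and all 1847 genes of that abundance lay -0.14 from it. In control sample 7-9 the 8 abundant HIF genes lay 0.21 above the control mean, and all genes of that abundance -0.06 from it. Of the 10 HIF genes, Mt1ko sample 10-12 was the lowest of all samples for 4 (40%), namely Hif1a, P4ha1, Adm and Ndrg1, and came next below control sample 7-9 for Bnip3, Bnip3l, Ankrd37, Egln1 and Egln3. For Bnip3l, Egln1 and Ankrd37 that place rested on a single library of the sample. For Ankrd37 it was library 12 at 104 CPM, beside 75.3 and 73.2 CPM in libraries 10 and 11 and 80.0 CPM in sample 16-18. In sample 10-12 the mitochondrial ribosomal RNA and the mast cell and stroma markers, given above, were the highest of all samples. Control sample 7-9 held library 9, whose 11.2% of mitochondrial ribosomal RNA was the highest of the controls. That control sample also had the highest sum of the 11 erythroid markers, at 138 CPM against 49.8 to 103 CPM in the other 5 samples. Only 1 of these 11 averaged at least 10 CPM in control, and Epor was at 0 in all samples. The part of these markers and of RNA quality in the levels of the 35 genes was not tested.

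**Figure D5:**
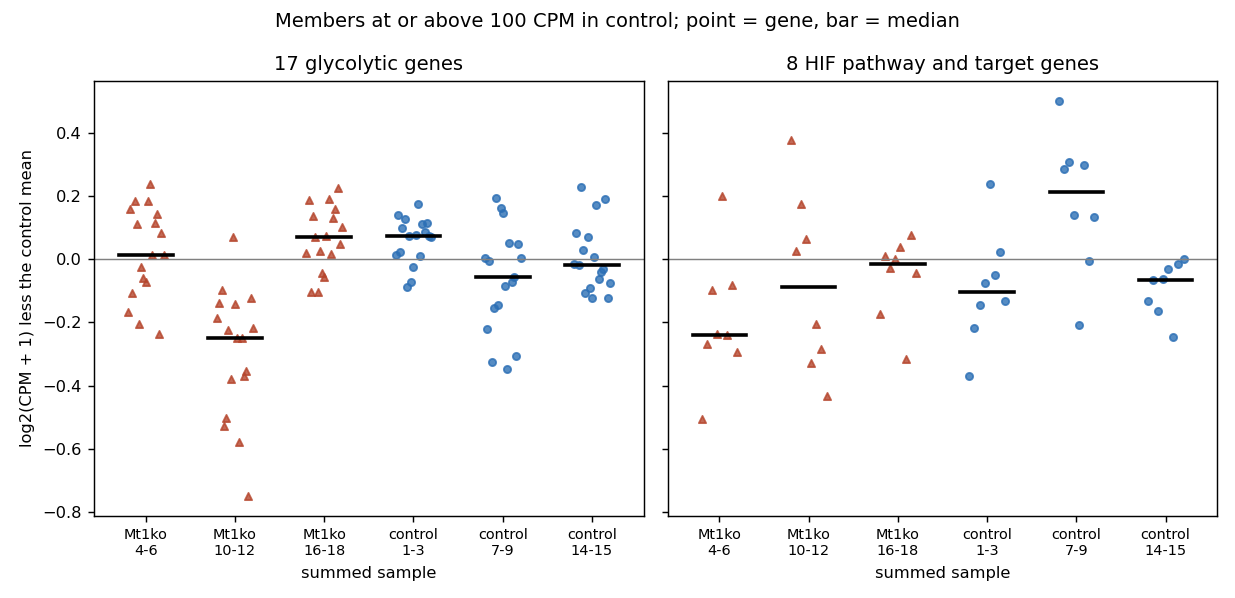
Log2(CPM + 1) of each member with at least 100 CPM in control less its control mean, in the 6 summed samples, for 17 glycolytic genes on the left and 8 HIF genes on the right; points are genes and bars are medians. The glycolytic median is lowest in Mt1ko sample 10-12 at -0.25, and the HIF median is highest in control sample 7-9 at 0.21.

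The SD among single libraries of a sample was close in size to the SD among the 6 samples, each a sum of 2 or 3 libraries. A sum evens out part of the spread among its libraries, so these values do not show that samples differed no more than libraries. For the glycolytic genes the median SD of log2(CPM + 1) was 0.17 among libraries of a sample and 0.18 among the 6 samples, and 0.11 among the 5 samples other than 10-12. For the HIF genes it was 0.26 within and 0.21 between samples, and 0.21 without 10-12. Over all genes with at least 100 CPM the values were 0.19 within and 0.17 between.

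Other genes of the same pathways also gave no call. Of 29 further glycolysis genes 17 were tested, with 8 above and 9 below 0 and a median log2 fold change of -0.02. The smallest p among them belonged to Bpgm, bisphosphoglycerate mutase, which is abundant in red cells, with 5.22, 5.06 and 5.03 CPM in Mt1ko and 5.87, 9.97 and 7.10 CPM in control (log2 fold change -0.58, SE 0.33). Of 13 genes at the entry of pyruvate into mitochondria 12 were tested, 6 in each direction, and Pdk2 had 20.5 CPM in Mt1ko sample 10-12, against 3.54 to 6.95 CPM in the other 5 samples. All 7 pentose phosphate genes were above 0 with a median of 0.09, and the smallest p was that of Rpia, ribose 5-phosphate isomerase, with 27.6, 39.7 and 29.5 CPM in Mt1ko and 30.5, 20.7 and 23.1 CPM in control (log2 fold change 0.38, SE 0.22). Without sample 10-12 that median was 0.02. Of 37 other HIF genes 32 were tested, 13 above and 19 below 0, with a median of -0.01. Among them Higd1a, a mitochondrial protein induced by hypoxia, had 35.6, 31.6 and 39.5 CPM in Mt1ko and 35.2, 47.7 and 45.3 CPM in control (log2 fold change -0.26, SE 0.17). Car12, a carbonic anhydrase, had 2.94 CPM in Mt1ko sample 10-12 and at most 0.357 CPM elsewhere.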

How the data were processed

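Per the labels' protocols, total RNA extracted with an RNeasy Micro kit was made into stranded libraries with a Takara SMARTer Pico kit. The authors deposited unnormalized counts (whole numbers per gene) for 17 libraries and for 6 sums of libraries, and each sum equalled its libraries in every gene (0 differing). Trimmomatic 0.35, RSEM 1.3.3 and the build GRCm38 (mm10) are named in the submitters' processing notes, but the sources used here give neither their settings nor how RSEM estimates, which may be fractional, became whole numbers. No number 13 occurs among the 17 libraries. Coordinates and exon lengths came from GENCODE vM21, and promoter sequences from RefSeq. For a symbol with several identifiers, the row with the highest total was used.

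The members, lists, tests and alternatives were chosen with earlier results of these data known. All 35 members could be named, and of each further pathway list up to 3 tested genes in each direction, by smallest p. The 6 sums, 3 Mt1ko and 3 control, were compared by the quasi-likelihood F test of edgeR 4.0.16 (R 4.3.3) after filterByExpr and TMM, with group as the only term, Benjamini-Hochberg adjustment over 16666 genes and a threshold of 0.05. Standard errors were obtained by dividing the absolute log2 fold change by the square root of F. CPM of samples and of libraries were TMM-scaled, each set by its own factors (0.85 for sample 10-12, 1.00 to 1.05 for the others), except those of Mt1 in library 6, which are relative to all counts. The procedure was tested on simulated data, drawn as independent samples with no outlying sample, and no statement here rests on that run. Alternatives were other scalings and filters, the 17 libraries (alone, with the second index sequence, or with the sample as a random effect), DESeq2 1.42.0, limma-voom (limma 3.58.1), thresholds of 0.01 and 0.10, leaving out each sample, library 6 or mitochondrially encoded genes, and, added after seeing the data, leaving out library 6 together with sample 10-12. Figures were drawn with matplotlib 3.10.9.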

Additional observations from a re-analysis of the deposited data

Results flagged for a closer look

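In 70 groups of library values (35 genes in 9 Mt1ko and in 8 control libraries), 11 held a library that stood far from the rest, where chance alone sets apart about 1 in 20 groups of independent values. Libraries of a sample are not independent, so that rate does not apply to these groups as it stands. Values are TMM-scaled CPM, each with the nearest other library of its group. Among Mt1ko libraries, library 12 had 252 CPM of Hk2 (next 221), 23.3 CPM of Pfkm (next 5.42) and 200.3 CPM of Bnip3l (next 139.6). Mt1ko library 10 had 12.3 CPM of Ldhb (next 0.0286), 339 CPM of Egln1 (next 217) and 403 CPM of Vegfa (next 282). Mt1ko library 18 had 0.652 CPM of Eno2 (next 0.257), from 22 counts. Libraries 10 and 12 belong to sample 10-12, which stood apart in mitochondrial ribosomal RNA. Among control libraries, library 9 was low, with 2232 CPM of Gapdh (next 2807) and 4439.8 CPM of Pkm (next 5302), library 7 had 1.14 CPM of Ldhb (next 0.463), and library 15 had 26.1 CPM of Adm (next 11.8).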

How the results depend on the processing

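In every alternative run, 0 of the 35 members were called. Over all genes the count called was 0, and it was 1 (Mt1) with the 17 libraries entered singly, with the sample as a random effect, with DESeq2, with library 6 left out of its sum, and with library 6 and sample 10-12 left out. No paired analysis was possible because the Mt1ko and control titles share no replicate number. The labels' replicates may be technical, 3 samples a group bound only changes as large as the intervals given, and an uncalled change may still exist. Depth limits Eno2 and Ldhb most, with 0 to 71 and 0 to 313 counts a sample.

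The median log2 fold change of the glycolytic genes was 0.11 with library 6 and sample 10-12 left out, an alternative chosen after seeing the data. That of the other HIF genes was -0.056 with 17 libraries, -0.13 with the index covariate, -0.079 with the random effect and 0.034 with library 6 and sample 10-12 left out. Leaving out each sample in turn gave medians from -0.11 to 0.062 for glycolytic genes, from -0.23 to -0.033 for HIF genes, from -0.089 to 0.015 for other glycolysis genes, from -0.14 to 0.052 for pyruvate entry genes, from 0.024 to 0.15 for pentose phosphate genes and from -0.023 to 0.017 for other HIF genes, with 0 genes called each time. The lowest pyruvate entry value came without Mt1ko sample 4-6.

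None of the single-gene fold changes that follow passed the threshold, so a change of sign moved an uncalled value across 0, and the cause was not tested. The log2 fold change changed sign for Pkm at 0.0076 (RLE scaling), for Gapdh at -0.011, Ldha at -0.020 and Egln1 at -0.0195 (upper quartile scaling). No filter gave Pkm at 0.0062. A minimum of 1 CPM gave Pkm at 0.0046. The 17 libraries gave Ldha at -0.0075 and Egln1 at -0.0034. The random effect gave Pfkm at -0.13, Ldha at -0.0073 and Egln1 at -0.029. DESeq2 gave Pkm at 0.0076. The limma-voom fit gave Ldhb at -1.0009. Library 6 left out gave Aldoa at 0.012, Pgk1 at 0.0054, Eno1 at 0.012, Pkm at 0.0074 and Slc16a3 at 0.015. Mitochondrially encoded genes left out gave Pkm at 0.0019. With library 6 and sample 10-12 left out the sign changed for Slc2a3 at -0.48, Hk3 at 0.15, Gpi1 at 0.13, Aldoc at 0.30, Pgk1 at 0.23, Pgam1 at 0.028, Eno1 at 0.17, Pkm at 0.16, Pfkfb3 at 0.0080, Ldhb at -4.77, Slc16a3 at 0.12, Pdk1 at 0.019, Egln1 at -0.017, Hif1a at 0.11, P4ha1 at 0.014, Adm at 0.22, Pdk2 at -0.21 and Plod2 at -0.13. Leaving out each sample in turn, the fold change crossed 0 for the following genes: Adm from -0.92 to 0.14, Aldoa from -0.061 to 0.077, Aldoc from -1.25 to 0.30, Ankrd37 from -0.34 to 0.41, Bnip3 from -0.37 to 0.20, Bnip3l from -0.19 to 0.075, Egln1 from -0.080 to 0.18, Egln3 from -0.11 to 0.026, Eno1 from -0.11 to 0.12, Eno2 from -2.21 to 0.93, Gapdh from -0.083 to 0.13, Gpi1 from -0.19 to 0.089, Hif1a from -0.15 to 0.11, Hk1 from -0.032 to 0.17, Hk3 from -0.20 to 0.15, Ldha from -0.055 to 0.067, Ldhb from -5.20 to 3.43, P4ha1 from -0.18 to 0.0044, Pdk2 from -0.18 to 1.36, Pfkfb3 from -0.49 to 0.0013, Pfkfb4 from -0.0067 to 0.14, Pgam1 from -0.11 to 0.019, Pgk1 from -0.18 to 0.20, Pkm from -0.086 to 0.15, Slc16a1 from -0.025 to 0.40, Slc16a3 from -0.10 to 0.062 and Slc2a3 from -0.40 to 1.18.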
